A study of Acrobeloides nanus with 194 samples.

Results

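The transcripts described here are 44 rows of a count table of single embryonic cells of the nematode Acrobeloides nanus, chosen by their higher mean level in the AB cell than in its germline-side neighbour at the 2-, 3- and 4-cell stages. They are 44 of the 1396 rows whose level moved moderately over embryogenesis, out of 16853 rows in all. The table carries no row identifiers and the files do not pair its rows with the deposited transcript contigs, so each transcript is named by its position in the table (counted from 1 below the header line) and has no gene name, sequence or known function here.

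Embryos were freed from their shells and pulled apart by hand, and single cells or small clusters of cells were sequenced with CEL-Seq2, which counts barcoded 3' ends of transcripts. The rows were chosen on 7 groups of libraries. The 2-cell stage gave 7 libraries of AB and 7 of P1, the 3-cell stage 7 of AB, 5 of P2 and 4 of EMS, and the 4-cell stage 3 of AB and 4 of P3. The other early groups were P0 at the 1-cell stage (3 libraries) and EMS (1), C (2) and p4 (2) at the 4-cell stage. Later groups were 7 libraries of AB cells and 20 of other named cells from 5- to 16-cell embryos, 5 of AB pieces and 9 of other named pieces at the stages titled E2 and E4, post_Abp (3) and post_E (3) at the stage titled E8, and anterior (6), middle (5) and posterior (5) pieces at the stage titled Comma. No treatment or mutant was involved, and only libraries with at least 10000 counts are included. With no gene names, the labelled cells could not be checked against marker genes.

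The first cleavages of a nematode embryo follow a fixed pattern: the fertilised egg, P0, gives AB and P1, and P1 then splits into EMS and P2, and P2 into C and P3. In Caenorhabditis elegans, AB descendants form most of the skin and nervous system and part of the pharynx, EMS gives gut, muscle and pharynx, and the P cells keep the germline. Much of the RNA in the first cells comes from the mother, and a transcript can become unequal between sister cells through uneven partition, through loss from one of them, or through early transcription in one of them.

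The level used for the choice was log2(CPM + 50), where CPM scales a row's count by the total of its library (1 count in a library of 10000 is 100 CPM). Rows were first kept if the highest and the lowest of 4 stage means (1 to 4 cells, 5 to 16 cells, E2 to E8, and VE, Comma and LE) differed by 0.5 to under 1. They were then selected on group means: AB minus P1, AB minus P2 and AB minus P3 all had to be above 0, and 3-cell AB had to be above 3-cell EMS. Of the 1396 rows, 97 (6.95%) met the conditions against the P cells and 44 (3.15%) met all of them, while 229 (16.4%) were lower in AB in all 4 differences. These values chose the rows and are given as a description, with no test.

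The median AB excess over P cells in the chosen rows was smaller at 2 cells than at 3 and 4 cells. The choice required each difference to be above 0, and fewer libraries enter at 3 and 4 cells. No trend over stages is read from this order. Over the 44 rows the median difference was 0.12 for AB minus P1, 0.38 for AB minus P2, 0.47 for AB minus P3 and 0.20 for 3-cell AB minus EMS. Over the 1396 rows the same medians were -0.23, -0.12, -0.30 and 0.01. The smallest of the 3 AB minus P differences, called the margin below, was that of the 2-cell stage in 28 rows, the 3-cell stage in 7 and the 4-cell stage in 9. The margin ran from 0.0011 to 0.47 with a median of 0.07, so at least 22 of the rows were chosen on a margin close to 0. The last rows inside were row 8195 (margin 0.0041) and row 11625 (0.0011), and the first rows outside were row 12941 (0) and row 1130 (-0.0007).

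**Figure D1:**
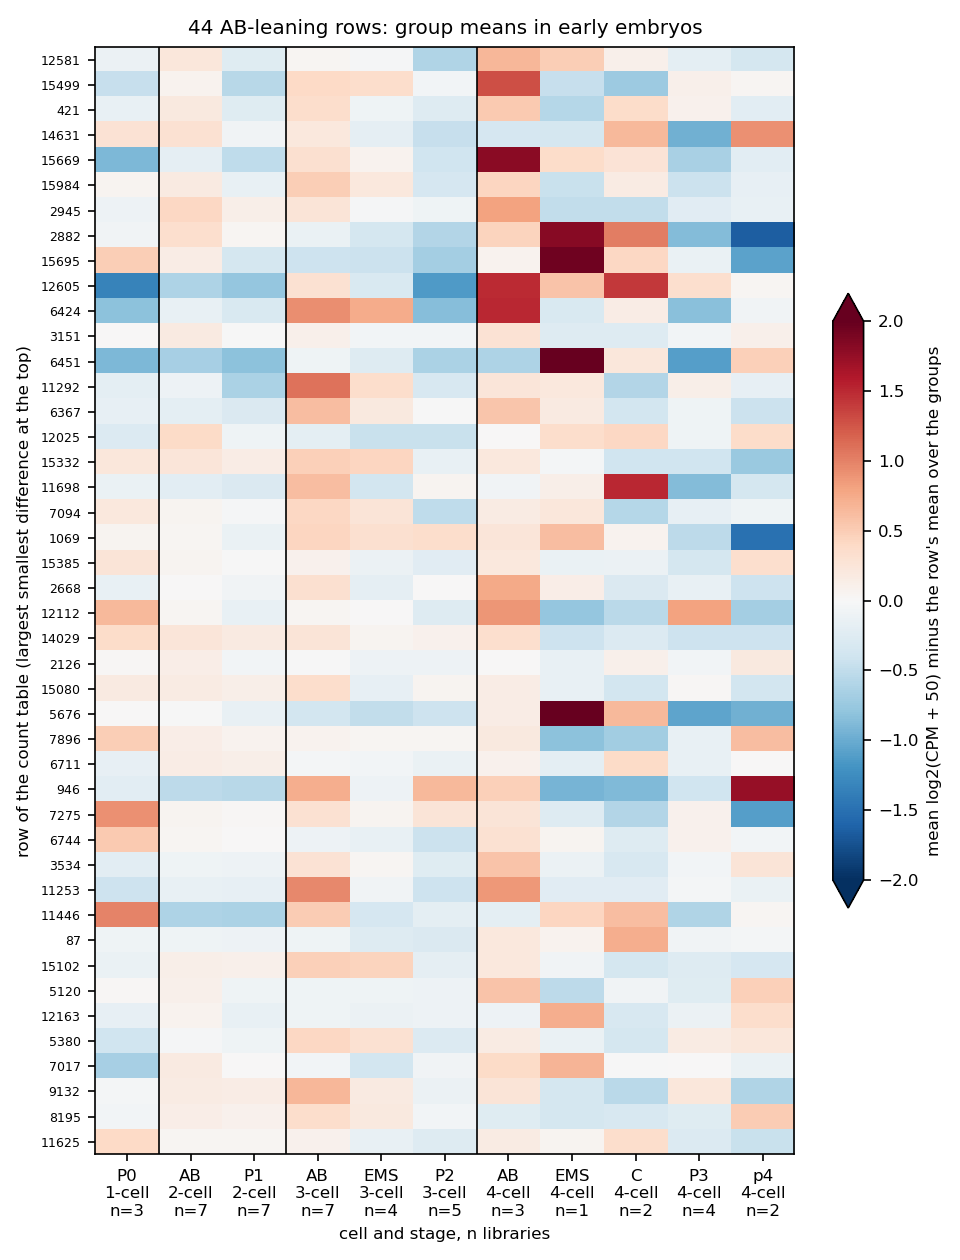
Mean log2(CPM + 50) of the 44 rows (down the page, largest margin at the top) in each early cell (across, with n libraries), minus the row's own mean over these groups. Colours end at 2 and -2. Red in the AB columns over blue in the P1, P2 and P3 columns is what the choice fixed; the single EMS library and the pairs of C and p4 libraries at the 4-cell stage were not used in it and are mixed.

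The 6 rows of largest margin show how the groups overlapped library by library. Row 12581 held 88.5 to 596 CPM in 2-cell AB (median 147.1) and 55.01 to 161.4 CPM in P1 (median 114.8). At 3 cells it held 57.2 to 573 CPM in AB (median 118.99) and 17.5, 68.5, 84.2, 88.3 and 116.1 CPM in P2. At 4 cells it held 51.6, 209 and 861 CPM in AB and 16.6, 126.5, 173.8 and 186.6 CPM in P3. One AB library of each stage lay far above the rest, and the lowest AB library lay inside the P-cell range at every stage.

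Row 421 had a similar shape with a narrower spread at 2 cells, where it held 91.1 to 217 CPM in AB (median 130) and 52.6 to 153.02 CPM in P1 (median 77.9). At 3 cells AB ran from 52.1 to 823 CPM (median 149.01), against 41.4, 52.6, 66.2, 88.02 and 210 CPM in P2. At 4 cells the values were 119.4, 154.8 and 274 CPM in AB and 83.04, 86.9, 126.5 and 186.6 CPM in P3. AB medians were above those of the P cells at each stage, and no stage separated the groups.

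Row 15499 was spread more widely in 2-cell AB, at 0 to 325 CPM (median 74.4), than in P1, at 0 to 83.7 CPM (median 37.4). At 3 cells it held 57.2 to 344 CPM in AB (median 88.1) and 0, 49.7, 88.02, 105.3 and 176.7 CPM in P2, with nearly equal medians. At 4 cells all AB libraries (109.4, 310 and 431 CPM) lay above all P3 libraries (57.9, 74.6, 99.6 and 105.4 CPM). The lowest AB value there rested on 11 counts and the highest P3 value on 5.

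Row 15669 had the largest 4-cell difference of the 44, 2.45. Its 4-cell AB libraries held 310, 431 and 676 CPM, from 6, 11 and 68 counts, and its P3 libraries 16.6, 28.96, 37.3 and 105.4 CPM, from 1, 1, 1 and 5 counts. At 3 cells it held 39.7 to 270 CPM in AB (median 117.5) and 29.3, 42.1, 58.03, 87.7 and 88.3 CPM in P2. At 2 cells it held 44.3 to 108.4 CPM in AB (median 78.1) and 27.5 to 90.8 CPM in P1 (median 52.5). Thus the ranges overlapped at 2 and 3 cells and not at 4 cells, and the AB median stepped up at each stage.

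Row 15984 held 67.5 to 217 CPM in 2-cell AB (median 91.1) and 20.2 to 148.1 CPM in P1 (median 82.5). In 3-cell AB it held 0 to 302 CPM (median 215), against 22.1, 42.1, 74.6, 87.7 and 117.4 CPM in P2. Here 5 of 7 AB libraries, at 206 CPM or more, were above every P2 library. In 4-cell AB it held 79.6, 103.2 and 313 CPM, against 28.96, 37.3, 42.2 and 149.5 CPM in P3.

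Row 14631 held 66.4 to 260 CPM in 2-cell AB (median 208) and 74.8 to 172.1 CPM in P1 (median 97.6). Its 3-cell AB libraries held 92.03 to 924 CPM (median 97.7), against 42.1, 48.9, 66.2, 107.8 and 140 CPM in P2. Without the highest AB library, 3-cell AB spanned 92.03 to 132.2 CPM. At 4 cells it held 0, 154.8 and 209 CPM in AB and 0, 37.3, 63.3 and 83.04 CPM in P3, so both groups had a library without a count.

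**Figure D2:**
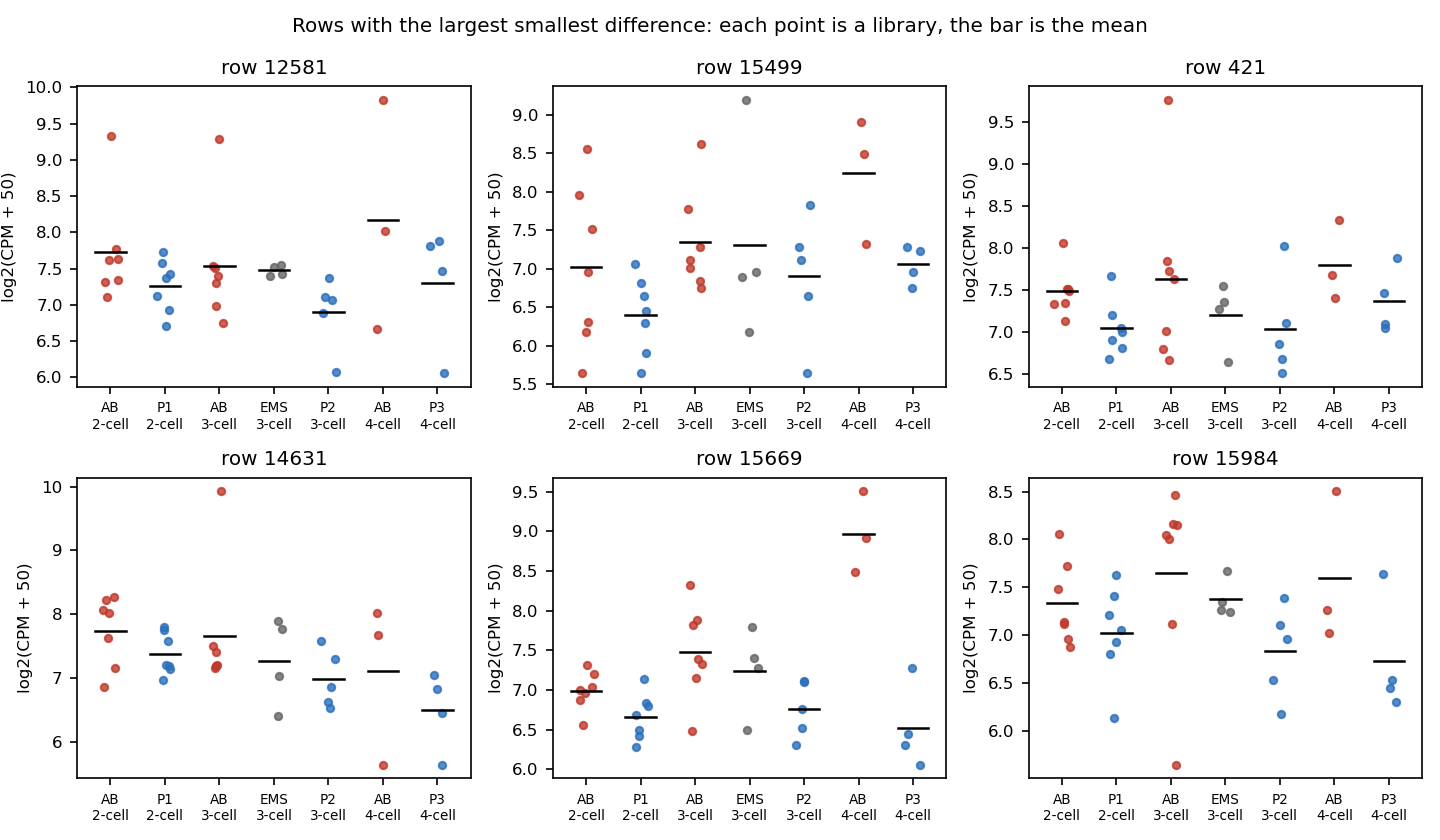
Level in log2(CPM + 50) of the 6 rows of largest margin in every library of the 7 groups that chose the rows (red AB, blue P cells, grey EMS; bars are means). AB and P-cell points overlap in each panel at 2 and 3 cells, and at 4 cells rows 15499 and 15669 have all AB points above all P3 points.

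Complete separation of AB from the P cells was rare. At 2 cells, 0 of the 44 rows had every AB library above every P1 library, against 0% of the 1396 rows. At 3 cells it was also 0, against 0.358% of the 1396 rows. At 4 cells, where 3 libraries stand against 4, it was 5 rows (15499, 15669, 2882, 6424 and 6367), against 2.22% of the 1396 rows. The choice used these differences, so nothing is read from the counts. Row 2882 held 156.6, 209 and 413 CPM in 4-cell AB and 37.3, 57.9, 83.04 and 105.4 CPM in P3, and row 6424 held 103.2, 249 and 626 CPM in AB and 0, 0, 21.1 and 33.2 CPM in P3. The lowest AB and highest P3 values rested on 4 and 5 counts in row 2882, and on 2 and 2 counts in row 6424.

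Libraries of the same replicate number can be set side by side, although no label says that a number marks an embryo. At 2 cells, 15 to 31 of the 44 rows were higher in AB than in the same-numbered P1 library over 7 pairs, where 27.01% to 52.4% of the 1396 rows were. In 5 of those pairs it was 26 or more of the 44. At 3 cells it was 24 to 39 over 5 pairs with P2, and these ends follow the whole table: the pair with 39 had 75.4% of the 1396 rows higher in AB and the pair with 24 had 23.4%. At 4 cells it was 22 to 34 over 3 pairs with P3, where 33.7% to 37.9% of the 1396 rows were higher. The median row was higher in AB in 4 of 7 pairs at 2 cells, 3 of 5 at 3 cells and 2 of 3 at 4 cells, and no row was so in all 7 pairs at 2 cells. These libraries are the ones that chose the rows, so nothing is read from the counts.

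Single libraries carried much of the AB level. At 2 cells, 8 rows had over 50% of the summed AB CPM in 1 library, and at 3 cells 11 rows did. At 4 cells, with 3 libraries, 33 rows did. The highest 2-cell AB library was replicate 1 for 16 rows, and the highest 4-cell AB library was replicate 2 for 22 rows. At 18453 counts, replicate 1 was the shallowest 2-cell AB library, and 1 count in it is 54.2 CPM. The same counts for rows outside the selection are not given here. Nothing particular to the chosen rows is therefore read from them. Row 946, chosen for mention after its values were seen, held 7538 CPM in 3-cell AB replicate 8 and 14.3 to 338 CPM in the other 6 AB libraries of that stage, against 0, 29.3, 70.2, 552 and 945 CPM in P2.

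Leaving out 1 library of the 7 groups at a time kept 29 to 42 of the 44 rows in the selection, with 29 kept without 3-cell AB replicate 6. The margin stayed above 0 in every such omission for 7 rows, but single libraries moved it. Row 12581, with a margin of 0.47 over all libraries, had 0.04 without 4-cell AB replicate 2, and row 421 (0.43) had 0.17 without the same library. Row 15499 (0.44) had 0.13 without 3-cell P2 replicate 1. Row 14631 (0.37) had 0.17 without 4-cell AB replicate 4, row 15984 (0.32) had 0.17 without 2-cell P1 replicate 1, and row 6424 (0.16) had 0.04 without 2-cell AB replicate 4. Of the 7, row 15669 moved least, with 0.26 at the lowest against 0.33. The scale mattered too. Keeping the rows fixed, 30 of 44 had all 4 differences above 0 when only libraries of at least 20000 counts were used, 23 with TMM effective library sizes, and 12 with every library thinned to 10000 counts. With TMM sizes, AB exceeded P1 in 25 of the rows, P2 in 44 and P3 in 41.

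Depth and library type moved with the groups at the 2-cell stage. AB libraries there had a median of 53794 counts and P1 libraries 209328. A first principal component over all libraries separates libraries by a score that is higher in deeper ones, and 4 of 7 AB and 2 of 7 P1 libraries scored below 0. At 3 cells 3 of 7 AB, 2 of 4 EMS and 1 of 5 P2 libraries did, and at 4 cells 1 of 3 AB and 1 of 4 P3. Without these low-score libraries, 14 of the 44 rows kept all 4 differences above 0: AB exceeded P1 in 25 rows, P2 in 34, P3 in 39 and EMS in 33. In all used libraries outside the 7 groups, 13 of the 44 rows (29.5%) were higher in low-score libraries, with a median difference of -0.12, against 23.7% and -0.27 for the 1396 rows. The part of depth or score in the AB lean was not tested further.

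The 4-cell groups that the choice did not use are set here beside AB and P3, whose means it did use. The median difference from AB was -0.53 for the 2 C libraries, -0.29 for the single EMS library and -0.53 for the 2 p4 libraries, against 0.08, -0.15 and 0.31 over the 1396 rows. The median difference from P3 was 0.07, 0.16 and 0.05 in the same order, against -0.22, -0.44 and 0.08 over the 1396 rows. Row by row, C was above AB in 12 rows, between AB and P3 in 10 and below P3 in 22. EMS was above AB in 11, between in 14 and below P3 in 19, and p4 was above AB in 11, between in 13 and below P3 in 20. The AB and P3 means that enter these differences chose the rows, and the other groups hold 1 or 2 libraries, so the values are a description. By summed share of counts, EMS held 1.23%, and the medians were 0.796% in C and 0.75% in p4. The medians were 0.952% in AB and 0.528% in P3, so whether these groups lay nearer to AB or to P3 is not read. At 3 cells, EMS exceeded P2 in 32 of the 44 rows (median difference 0.19), against 41.8% of the 1396 rows (median -0.11), with both groups used in the choice.

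Within AB itself, 27 of the 44 rows were higher at 3 than at 2 cells (median difference 0.21), against 53.7% of the 1396 rows (median 0.03). From 3 to 4 cells 25 were higher (median 0.10), against 36.03% (median -0.18). The AB means of these stages chose the rows, so nothing is read from these counts. Row 6424 is an example in which the AB libraries of 1 stage lay far apart. It held 0 to 111.5 CPM in 2-cell AB (median 39.03) and 17.8 to 71.7 CPM in P1 (median 38.3), and 0, 15.9 and 23.01 CPM in P0. At 3 cells the AB libraries split into 3 at 811, 990 and 1074 CPM and 4 at 0 to 61.4 CPM, while EMS held 15.0, 91.04, 171.6 and 522 CPM and P2 held 0, 0, 8.29, 22.1 and 29.3 CPM. Every P2 and P3 library was thus below 34 CPM, and AB and EMS libraries ran from 0 to over 500 CPM.

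Together the 44 rows held a small share of each library. Their summed share was 0.462% to 1.22% of counts in 2-cell AB (median 0.599%) and 0.385% to 0.660% in P1 (median 0.568%). At 3 cells the median was 0.765% in AB, 0.569% in EMS and 0.408% in P2, and at 4 cells 0.952% in AB and 0.528% in P3. The 4-cell AB libraries (0.888% to 1.05%) lay above the P3 libraries (0.272% to 0.787%), and the ranges overlapped at 2 and 3 cells. Without the 3 rows of highest mean CPM, 4-cell AB held 0.377% to 0.834% and P3 0.185% to 0.403%, which overlap. The direction was fixed by the choice of the rows. The 4-cell EMS library held 1.23%, the C libraries 0.560% and 1.03%, the p4 libraries 0.370% and 1.13%, and the P0 libraries had a median of 0.539%. Row 7017 made up 18.96% of the summed CPM of the 44, row 12605 12.2% and row 5676 5.89%, so the share follows a few rows.

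**Figure D3:**
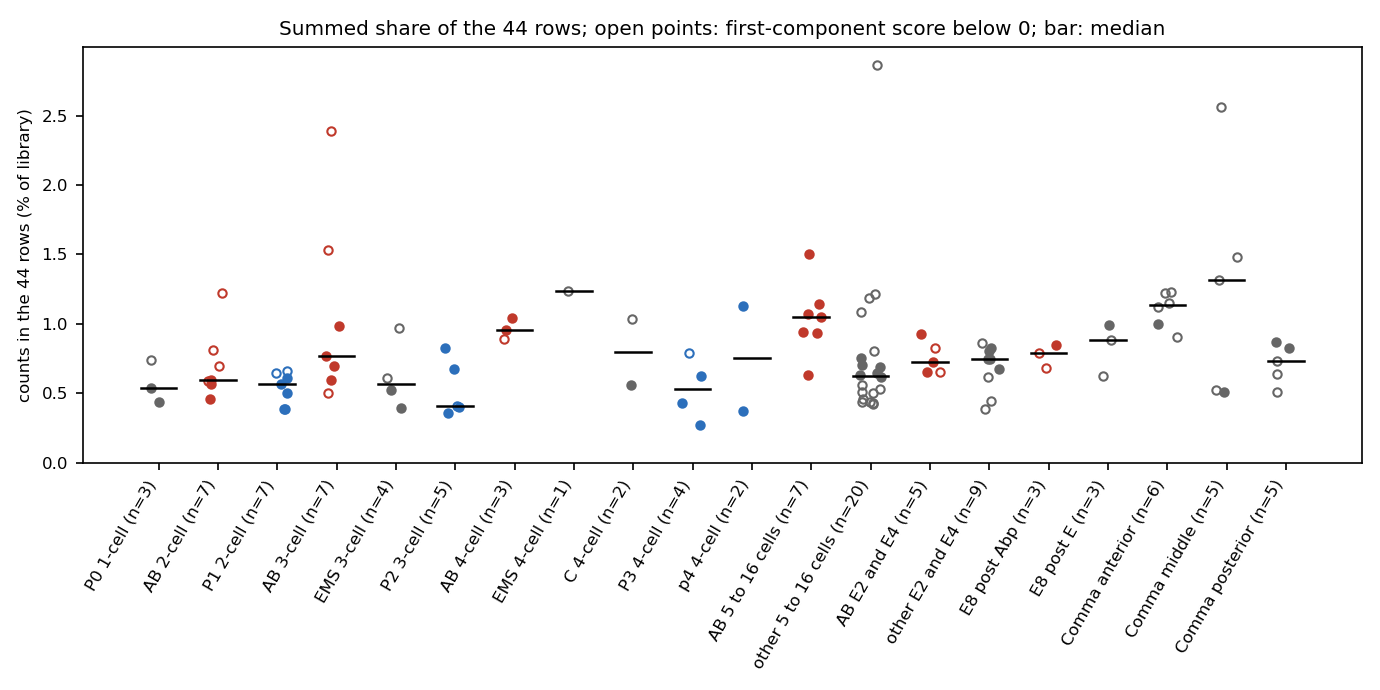
Counts in the 44 rows as a percentage of all counts of a library (linear axis from 0), by cell or piece and stage. Each point is a library, open where its first-component score is below 0, and bars are medians. At 4 cells, where the choice of the rows fixed the direction, the 3 AB libraries (red) lie above the 4 P3 libraries (blue), which they no longer do without the 3 rows of highest mean CPM. At 5 to 16 cells the AB median is 1.05% against 0.624% in other cells, with 14 of those 20 open.

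Most of the rows were not at their highest in the early embryo. Over the 4 stage means, 24 of the 44 (54.5%) were highest at VE, Comma and LE, 11 at 1 to 4 cells, 8 at E2 to E8 and 1 at 5 to 16 cells. Of the 1396 rows, 57.9% were highest at 1 to 4 cells and 30.4% at VE, Comma and LE. Averaged over libraries the rows ran from 19.7 to 1523 CPM (median 90.3), without correction for transcript length, and they were detected in 46% to 100% of libraries (median 79.3%).

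Whether the lean persisted in the AB lineage was asked in libraries that the AB minus P differences did not use. At 5 to 16 cells, 31 of the 44 rows (70.5%) were higher in the 7 AB libraries than in the 20 libraries of other named cells, after a term for stage, with a median difference of 0.30. The share was 70.1% over the 1396 rows (median 0.22), so the 44 did not stand out from them. With TMM sizes it was 39 rows, against 84.4% of the 1396 rows. None of the 7 AB libraries and 14 of the 20 others were low-score. Without those, 31 rows were again higher (median 0.17), against 40.8% of the 1396 rows (median -0.07), a comparison of 7 AB libraries with 6 others. A low score and a cell other than AB cannot be fully told apart at these stages.

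In the test across all rows at 5 to 16 cells (edgeR's quasi-likelihood test, Benjamini-Hochberg adjusted p under 0.05), 0 of 907 tested rows were called (0%), and so 0 of the 17 of the 44 rows that passed the filter on low counts. At an unadjusted p under 0.05 there were 15.2% of the tested rows, 1 of them among the 17. DESeq2 called 25 rows and limma 0, none of them among the 44. Without the filter edgeR called 519 of 16839 rows (3.08%), including row 11253. No label names the embryo of a cell, and some AB libraries of the same stage carry the same replicate number. The p-values and SEs of this comparison thus measure the spread between libraries that may share an embryo. Scaling moved the whole table: the median log2 fold change of all tested rows was -0.02 with TMM and 0.40 with RLE scaling, and that of the 17 rows was 0.26 and 0.70.

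At stages E2 and E4, 30 of the 44 rows (68.2%) were higher in the 5 AB libraries than in the 9 other named pieces (median difference 0.16), against 54.2% of the 1396 rows (median 0.03). With every library thinned to 10000 counts the count was 22, and without low-score libraries it was 24. The shares of the 1396 rows in these settings are not given here, so these counts have no background beside them. Here too, some AB pieces of the same stage carry the same replicate number and may share an embryo, which limits the p-values and SEs. edgeR's quasi-likelihood test called 0 of 746 rows (0%), 13 of the 44 being among those tested. At an unadjusted p under 0.05 there were 43 rows, none of the 13, and DESeq2 called 10 rows and limma 0, again none of the 13. Being higher in AB at both 5 to 16 cells and E2 and E4 held for 20 of the 44 rows (45.5%), against 38.97% of the 1396 rows and 32.98% of all rows.

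The pieces titled E8 and Comma hold several cells, in which fewer cells of a type and less RNA per cell cannot be told apart. At E8, 17 of the 44 rows (38.6%) were higher in post_Abp than in post_E (median difference -0.28), against 39.97% of the 1396 rows (median -0.14). edgeR called 0 of 1413 rows (0%), with 19 of the 44 tested, 75 rows at an unadjusted p under 0.05 (1 of the 19), and 0 calls by DESeq2 and limma. The share of the 44 was close to that of the 1396 rows, so nothing about the 44 is read from it. Of the 3 libraries of each piece, 2 were low-score. No label names the embryo of a piece, so p-values at E8 and Comma, like those of the earlier stages, measure the spread between pieces that may share one.

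At the Comma stage, a comparison added after seeing the data, 27 of the 44 rows (61.4%) were higher in anterior than in posterior pieces (median difference 0.20), against 44.8% of the 1396 rows (median -0.05). Their summed share was 0.904% to 1.23% in anterior pieces and 0.512% to 0.869% in posterior pieces, with no overlap. Without the 3 rows of highest mean CPM it was 0.428% to 0.873% in anterior and 0.367% to 0.647% in posterior pieces, which overlap. Over all 44 rows the 5 middle pieces held 0.510% to 2.56%, with a median of 1.32% against 1.13% in anterior pieces. A high share was thus not particular to anterior pieces. edgeR called 0 of 703 rows (0%), with 13 of the 44 tested, 57 rows at an unadjusted p under 0.05 (1 of the 13), and 0 calls by DESeq2 and limma. Of the Comma libraries, 5 of 6 anterior and 3 of 5 posterior ones were low-score. That leaves 1 anterior and 2 posterior libraries without them, too few to set beside this count.

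Against the 2-cell embryo the zygote showed no common direction. In P0, 22 of the 44 rows were higher than the mean of 2-cell AB and P1 (median difference -0.01), against 61.4% of the 1396 rows (median 0.10). edgeR called 5 of 4450 rows (0.112%), all higher in P0, and 0 of the 23 of the 44 that were tested. At an unadjusted p under 0.05 there were 196 rows, 1 of them among the 23. The comparison shares its 2-cell libraries with the choice of the rows. Without the filter edgeR called 19 of 16845 rows (0.113%), including row 11446, which held 15.9, 30.4 and 1510 CPM in P0. The highest P0 value there decides the call, since the others lie within the range of 2-cell AB (0 to 67.5 CPM) and P1 (0 to 40.4 CPM).

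**Figure D4:**
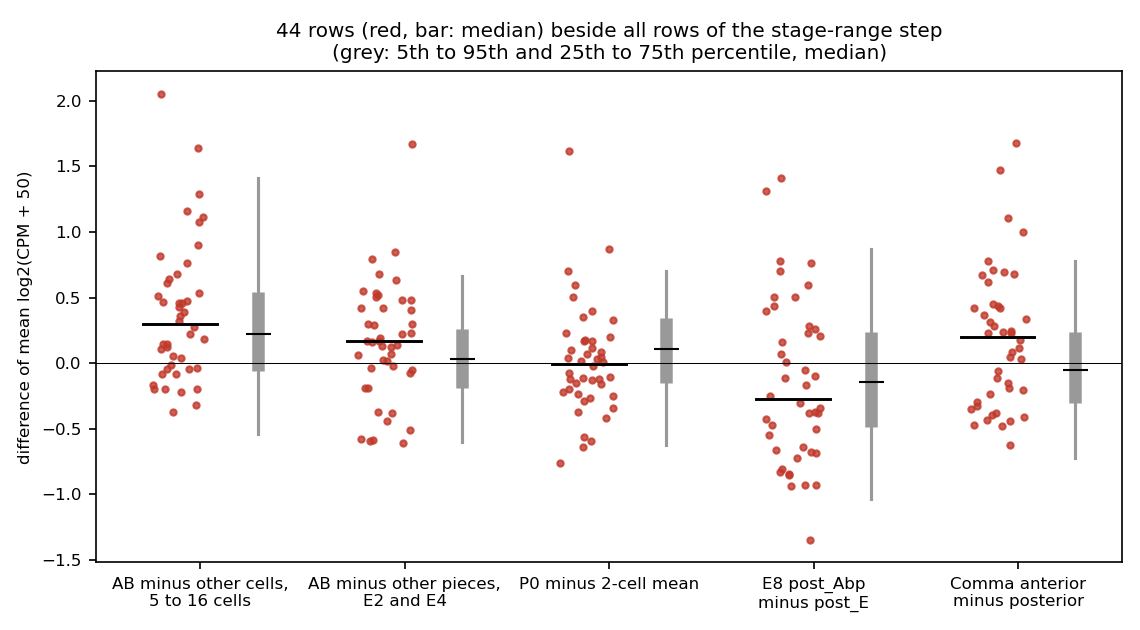
Difference of mean log2(CPM + 50) for each of the 44 rows (red points, bar at the median) in 5 comparisons, beside the 1396 rows (grey: 5th to 95th and 25th to 75th percentile, and median). The medians of the 44 rows are 0.30, 0.16, -0.01, -0.28 and 0.20 from left to right, and in each comparison the points lie on both sides of 0.

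Row 11253 had the smallest p of the tested rows of the 44 at 5 to 16 cells. It held 0 to 2405 CPM in the 7 AB libraries (median 96.1) and 0 to 1715 CPM in the 20 others (median 69.4), a log2 fold change of 2.18 ± 0.93 (SE, edgeR, adjusted p = 0.281). The 2 highest AB libraries held 433 and 2405 CPM and the other 5 held 0 to 116.5 CPM, so the fold change rests on few libraries. It also had the smallest p in the Comma comparison, at 32.9 to 2865 CPM in the 6 anterior pieces (median 117.9) and 0, 0, 35.6, 38.1 and 93.1 CPM in the posterior pieces. The log2 fold change was 3.90 ± 1.17 (SE, edgeR, adjusted p = 0.532). Without the filter the same row passed the threshold in both comparisons, at log2 fold changes of 3.27 (edgeR, adjusted p = 0.0239) and 4.11 (edgeR, adjusted p = 0.0370), among 0.37% of rows called at Comma.

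In the early embryo row 11253 held 0 to 1557 CPM in 3-cell AB (median 122.6), 10.1, 34.3, 44.9 and 94.4 CPM in EMS and 0, 0, 19.6, 41.4 and 66.2 CPM in P2. Its highest 3-cell AB library is again far from the rest, the next being at 166.03 CPM. At 4 cells it held 0, 139.3 and 509 CPM in AB and 28.96, 33.2, 42.2 and 74.6 CPM in P3. Its 2-cell margin was 0.02, with medians of 44.97 CPM in AB and 34.3 CPM in P1.

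Row 12605 had the smallest p of the tested rows of the 44 at E2 and E4. It held 593, 806, 1718, 2315 and 2921 CPM in the AB libraries and 108.4 to 2613 CPM in the 9 others (median 277), a log2 fold change of 1.46 ± 0.75 (SE, edgeR, adjusted p = 0.984). Of the 9 other libraries, 7 were below every AB library and 2, titled E, lay within the AB range. At Comma it held 65.96 to 4382 CPM in anterior pieces (median 2440.2) and 79.8, 177.8, 496, 1291 and 1550 CPM in posterior pieces, with 4 of 6 anterior pieces above every posterior one. It varied widely early on, at 13.0 to 2412 CPM in 2-cell AB (median 89.9) and 71.7 to 1358 CPM in P1 (median 126.2), where the median of P1 was the higher.

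Row 6424 had the smallest p of the tested rows of the 44 in the P0 comparison, with a log2 fold change of -1.53 ± 0.70 (SE, edgeR, adjusted p = 0.901). At 5 to 16 cells it held 41.5 to 1748 CPM in the 7 AB libraries (median 359) and 0 to 1079 CPM in the 20 others (median 9.03), 10 of which had no count. Among the 6 others that were not low-score, all had counts and the median was 369.8 CPM, close to that of AB. The log2 fold change over all 27 libraries was 1.66 ± 0.97 (SE, edgeR, adjusted p = 0.427).

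Row 15984 was at 103.8 to 738 CPM in the 7 AB libraries (median 302) and 0 to 1014 CPM in the 20 others (median 65.6), against a median of 161.6 CPM in the 6 others that were not low-score. Row 2126 had the smallest p at E8, at 0, 92.1 and 333 CPM in post_Abp and 0, 0 and 20.99 CPM in post_E, from at most 36 and 2 counts. Its log2 fold change was 3.44 ± 1.48 (SE, edgeR, adjusted p = 0.812). In the early embryo it had at most 2 counts in any AB library and 3 in any P-cell library, so its place among the 44 rests on single counts.

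**Figure D5:**
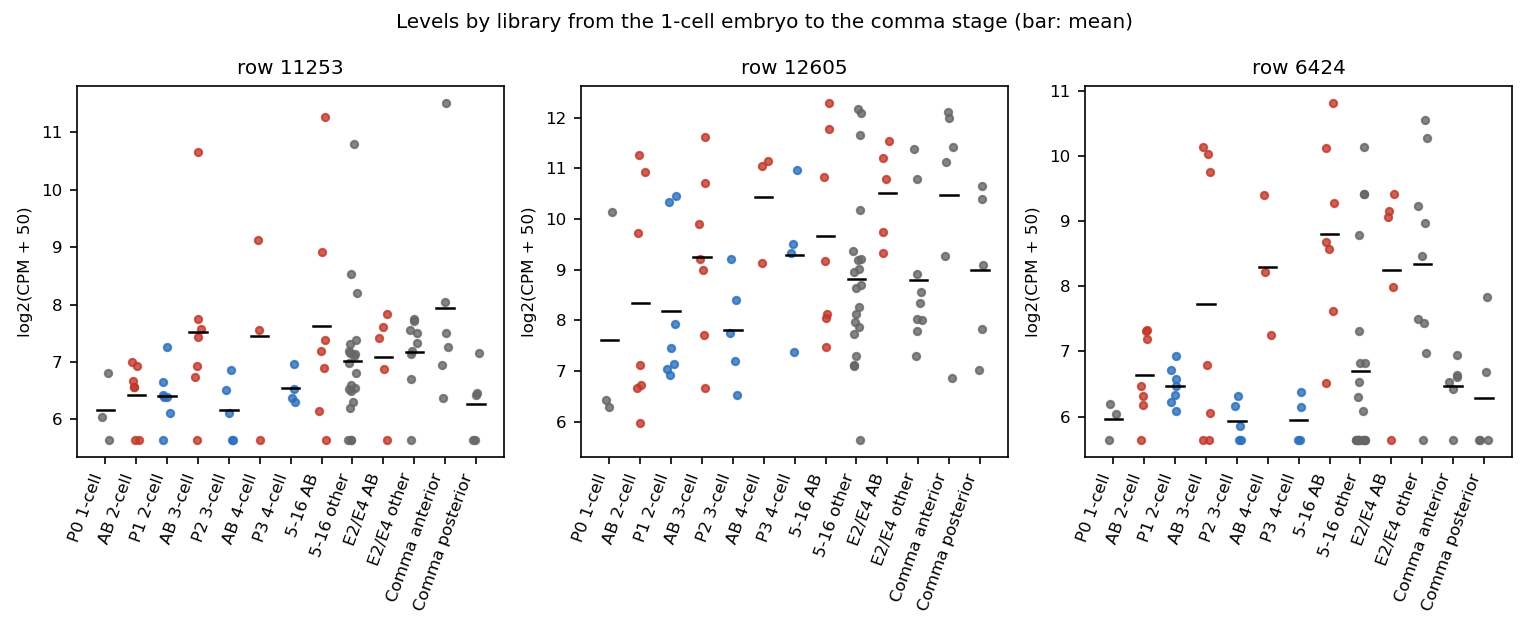
Level in log2(CPM + 50) of rows 11253, 12605 and 6424 in every library, for stages running up to Comma from the single-cell embryo (red AB, blue P cells, grey other; bars are means). Row 6424 is near the floor in all P2 and P3 libraries and in 10 of the 20 other libraries of 5 to 16 cells, while row 11253 has 1 library far above the rest in 3-cell AB, in AB of 5 to 16 cells and in anterior Comma pieces.

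The 44 rows did not vary together outside the groups that chose them. Over all other used libraries the median Pearson r of their 946 pairs was 0.066, against 0.076 for pairs of the 1396 rows, and 68.8% of the pairs were positive against 67.2%. These are descriptions over libraries that differ in stage, cell and depth. The closest pairs were rows 6424 and 5380 (r = 0.747), rows 11292 and 946 (r = 0.710) and rows 15984 and 6424 (r = 0.700). Rows 6424, 5380 and 15984 shared high AB medians at 5 to 16 cells, at 359, 226 and 302 CPM, against 9.03, 42.1 and 65.6 CPM in the other cells. In the 6 other libraries that were not low-score the medians were 369.8, 215 and 161.6 CPM, which for rows 6424 and 5380 lie within 12 CPM of AB. At E2 and E4 row 6424 held 0 to 631 CPM in the 5 AB libraries (median 486) and 0 to 1449 CPM in the 9 others (median 302). Row 15984 held 59.3 to 885 CPM in AB (median 585) and 108.4 to 1954 CPM in the others (median 608). Row 5380 held 0 to 371 CPM in AB (median 210) and 0 to 445 CPM in the others (median 165.9). The ranges of AB and the other pieces overlapped over most of their length for all 3 rows at these stages.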

How the data were processed

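The authors deposited whole-number counts of 3' ends per transcript row for 194 libraries. Per the submitters' processing notes, HTSeq 0.5.4p3, Bowtie2 2.1.0 and CASAVA 1.8 were used; neither their settings nor any collapsing of duplicate reads is given in the sources used here. Each column is headed by the number that ends its sample's description, and groups come from titles. Of 194 libraries, 150 had at least 10000 counts (totals over all libraries ran from 973 to 1217040, median 28629.5). At 10000 counts, 1 count is 100 CPM. No value of the 44 rows reached the table's highest value, 1024, which 22 values of the table held. The highest count of the 44 rows was 1005, in row 946, which had 922 counts in 3-cell AB replicate 8. Whether counts are compressed near 1024 was not tested.

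The rows, lists and comparisons were chosen with earlier results of these data known. Tests used edgeR 4.0.16 (R 4.3.3), with TMM, filterByExpr, robust quasi-likelihood fits and adjustment over all rows tested, with stage as a term where several stages were pooled. edgeR, DESeq2 1.42.0 and limma 3.58.1 were run on every comparison. Only the edgeR fits were also run on simulated counts, with large planted changes. The outcome is not given here, so a lack of calls is not shown to mean a lack of difference. Named rows are the 6 of largest margin, the 3 of largest margin whose AB libraries were all above the P cells at 1 stage (no row was so at more), the rows at the limit, and the row with the smallest p in each comparison; rows 946, 7017, 5676, 6367, 5380, 11292 and 11446 were chosen after their values were seen. Early replicates of 1 cell come from different embryos. The first component used 904 rows with at least 2000 counts, and 78 of 150 libraries scored below 0. Deviations of same-numbered E8 pieces had r = 0.509, 0.105 and 0.160 over 707 rows. The highest r with another number was -0.188, 0.217 and 0.136 in the same order. These values do not settle whether same-numbered pieces share an embryo.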

Additional observations from a re-analysis of the deposited data

Results flagged for a closer look

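In 17 of 75 groups of 4 to 10 libraries, 1 library of a named row stood apart from the rest by Dixon's 95% criterion on the gap to its nearest neighbour. Chance gives about 1 such library in 20 groups, and CPM values are skewed. Row 12581 had such a library in 2-cell AB (replicate 1, 596 CPM, next 169.1) and in 3-cell AB (replicate 2, 573 CPM, next 135.9). Row 421 had them in the same libraries, at 217 CPM (next 132.8) and 823 CPM (next 180), and in 3-cell P2 (replicate 1, 210 CPM, next 88.02). Row 15499 had them in 3-cell AB (replicate 7, 344 CPM, next 169.1) and 3-cell EMS (replicate 7, 536 CPM, next 74.5). Row 14631 had one in 3-cell AB (replicate 8, 924 CPM, next 132.2). Row 2882 had them in 2-cell AB (replicate 8, 1418 CPM, next 478) and 3-cell AB (replicate 6, 471 CPM, next 175.8). Row 11253 had one in 3-cell AB (replicate 2, 1557 CPM, next 166.03). For rows 12581, 421 and 11253 the library that stood apart at 3 cells was the same one, AB replicate 2.

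Row 15984 had one in 4-cell P3 (replicate 4, 149.5 CPM, next 42.2), and row 12605 had one in 3-cell EMS (replicate 8, 5046 CPM, next 182.1). Row 2126 had one in 2-cell AB (replicate 1, 54.2 CPM, next 22.5), in 3-cell EMS (replicate 6, 7.48 CPM), in 3-cell P2 (replicate 7, 9.78 CPM) and in 4-cell P3 (replicate 4, 16.6 CPM), the last 3 being the only library of the group with a count. The part of these libraries in the AB lean is given by the selection without each library.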

How the results depend on the processing

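The selection depended on the scale. Of the 44 rows, 4 were chosen again with a pseudocount of 10, 5 with 200, 8 with libraries thinned to 10000 counts, 17 with libraries of at least 20000 counts, 4 without low-score libraries and 20 with TMM sizes. Other stage means kept 32 in both forms tried, and leaving out 1 library kept 29 to 42. Rows called at 5 to 16 cells numbered 0 in the main test, 25 with DESeq2, 519 without the filter, 1 without low-score libraries, and 0 to 15 with 1 library left out (15 without 5-cell P4 replicate 2). At E2 and E4 they numbered 0, 10 with DESeq2, 16 without the filter, 1 without low-score libraries, and 0 to 13 (13 without E4 AB6 replicate 1). In the P0 comparison they numbered 5, 2 with DESeq2, 19 without the filter, 0 with limma, 0 without low-score libraries, and 1 to 21 (21 without P0 replicate 3, 18 without replicate 2, 1 without replicate 1). At Comma, 62 rows were called without the filter and 52 without low-score libraries, which left 4 libraries, and 0 with any 1 library left out. At E8 it was 0 in all settings, and the test without low-score libraries could not be fitted.

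With the replicate number as a block, 0 rows were called in each of the 5 comparisons, against 5 without it for P0, and no other call changed. Deviations of same-numbered 2-cell AB and P1 libraries had r of 0.015 to 0.50, and the highest r with another number was 0.100 to 0.571. Only number 8 had the higher r with its own number (0.179 against 0.100). Whether a number marks an embryo is not settled by these values. Counts of the 44 rows higher ranged, with 1 library left out, over 29 to 37 at 5 to 16 cells, 26 to 32 at E2 and E4, 18 to 28 for P0, 13 to 21 at E8 and 25 to 29 at Comma. The cause of these changes was not tested. Libraries near 10000 counts cannot show a difference of a row under about 100 CPM, which is 1 count.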

Other observations

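Libraries under 10000 counts entered no comparison. The 44 rows held 0.936% of the 9296 counts of 3-cell EMS replicate 4 (95% exact binomial interval 0.750% to 1.15%) and 0.435% of the 9664 counts of 3-cell P2 replicate 4 (0.313% to 0.587%). The AB library of the same number, which was used, held 0.504% of 25213 counts (0.420% to 0.599%). The 3 small C libraries of the 4-cell stage held 0.433%, 0.522% and 0.720%. The intervals cover counting error only.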
